A study of Mus musculus with 10 samples.

Results

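The peaks described here are the 3034 H3K4me3 peaks of WT cells that lay away from the start of every protein-coding gene, out of 16038 H3K4me3 peaks in WT and 70826 peaks in the 8 lists of the series. They were selected on position. A member's nearest edge was more than 2500 bp from every transcription start site (TSS) of a protein-coding transcript in GENCODE M1, on the mm9 build. The other 13004 peaks are called coding-promoter peaks. Of the off-promoter peaks, 468 (15.4%) lay within 2500 bp of the TSS of a non-coding gene or pseudogene. A further 1046 (34.5%) overlapped a gene body, and 1520 (50.1%) were intergenic. Position, presence in the WT H3K4me3 list and everything that follows from them chose these peaks, so lengths and enrichments in that list are given as a description.

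The cells were mCherry+ cells sorted at day 4 from EBs (embryoid bodies), the clusters that mouse ES cells form as they differentiate. The WT line, Scl:mCherry, carries the reporter on one allele of Scl and makes functional SCL, also called TAL1, a transcription factor needed for blood specification. The Delta line, SclΔ/Δ:mCherry, was derived from the WT line and lacks the basic helix-loop-helix (bHLH) domain of SCL on both alleles. Each line was expanded from a single cell, so a genotype is 1 clone. The strain label was a cross of C57Bl/6 with Sv129 for 3 of the 10 samples. For the others, both H3K4me3 libraries among them, a different number followed Sv, so the strain is uncertain from the labels. According to the study's methods, the WT line was made from J1 ES cells, so both lines share that origin. Drosophila S2 cells were added to every sample before ChIP (ChIP-Rx) as a spike-in. Antibodies to H3K4me3, H3K27me3, H3K27ac and H2AK119ub were used, with 1 library for each of the 4 marks and 2 genotypes. No difference below has a replicate check, no test between genotypes was possible, and a difference between WT and Delta is one between 2 libraries. Read depth cannot be read from peak lists. According to the study's methods, more reads were mapped in Delta than in WT for H3K4me3, and fewer for H3K27me3 and H2AK119ub. For H3K4me3 the lists held 16038 peaks in WT and 15412 in Delta. H3K27me3 had 11345 and 10881, H3K27ac 4571 and 5269, and H2AK119ub 4922 and 2388. As a check of the labelled mesoderm, 7 of 8 mesoderm and haemangioblast markers had an H3K4me3 peak at the TSS in WT and 6 of 8 in Delta. Pecam1 had none in either, and Cdh5 had one in WT alone. Among 8 markers of other cell types, 3 had one in WT (Pax6, Sox17 and Foxa2, each with H3K27me3) and 4 in Delta, where Pou5f1 had one too. In WT, H3K27me3 also lay at the TSS of 5 of the 8 mesoderm markers, Kdr, Lmo2, Gata2, Pdgfra and T. H3K4me3 lies at silent promoters as well, so its presence names no cell type. H3K27ac lay at the TSS of 2 of the mesoderm markers in WT, Lmo2 and Gata2, at none of them in Delta, and at none of the other markers in either genotype. A peak list cannot show whether the bHLH domain is deleted.

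H3K4me3 is laid down by the SET1 and MLL complexes, which are drawn to unmethylated CpG islands, and it is best known at the TSSs of active genes. At silent developmental genes it often lies together with H3K27me3, the product of Polycomb repressive complex PRC2, in so-called bivalent chromatin, and with H2AK119ub, the product of PRC1. H3K27ac marks active promoters and enhancers, and active enhancers typically carry little H3K4me3. Away from coding promoters, H3K4me3 can mark the starts of long non-coding RNAs (lncRNAs) and microRNA (miRNA) transcripts, promoters missing from an annotation, CpG islands inside or between genes, and genes read by RNA polymerase III.

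The windows below show the kinds of DNA found under these peaks. Each is the central 300 bases of the peak, on the plus strand of mm9, with every CG dinucleotide in capitals. The first 3 come from peaks with a Delta counterpart, which is an H3K4me3 peak in Delta at the same place, and the other 4 from peaks without one. They belong to the longest peaks of their class with or without a counterpart whose window touched no annotated UTR, except Tal1 and Gata2, which are shown as blood genes on which later results turn.
Trappc9 intron, chr15:72639572-72639871: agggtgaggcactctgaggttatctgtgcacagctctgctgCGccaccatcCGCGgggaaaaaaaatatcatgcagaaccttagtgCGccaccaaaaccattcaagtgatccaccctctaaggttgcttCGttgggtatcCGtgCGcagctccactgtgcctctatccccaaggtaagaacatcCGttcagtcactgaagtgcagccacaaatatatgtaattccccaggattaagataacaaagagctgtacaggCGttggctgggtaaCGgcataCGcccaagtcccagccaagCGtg
Intergenic near Fat1, chr8:46022025-46022324: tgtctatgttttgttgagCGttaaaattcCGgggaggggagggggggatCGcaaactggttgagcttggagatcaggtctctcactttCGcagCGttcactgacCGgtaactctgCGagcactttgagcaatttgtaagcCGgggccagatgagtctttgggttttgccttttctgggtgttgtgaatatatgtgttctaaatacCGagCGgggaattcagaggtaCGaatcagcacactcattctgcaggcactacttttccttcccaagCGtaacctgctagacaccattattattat
Tal1 intron, chr4:114736866-114737165: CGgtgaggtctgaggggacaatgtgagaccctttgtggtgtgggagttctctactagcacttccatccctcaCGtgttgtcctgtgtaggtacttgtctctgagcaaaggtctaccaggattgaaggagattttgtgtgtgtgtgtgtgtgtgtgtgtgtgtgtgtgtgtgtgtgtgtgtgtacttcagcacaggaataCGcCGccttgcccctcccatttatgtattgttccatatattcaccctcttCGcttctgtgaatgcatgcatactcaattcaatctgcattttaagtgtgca
Car2 intron, chr3:14889759-14890058: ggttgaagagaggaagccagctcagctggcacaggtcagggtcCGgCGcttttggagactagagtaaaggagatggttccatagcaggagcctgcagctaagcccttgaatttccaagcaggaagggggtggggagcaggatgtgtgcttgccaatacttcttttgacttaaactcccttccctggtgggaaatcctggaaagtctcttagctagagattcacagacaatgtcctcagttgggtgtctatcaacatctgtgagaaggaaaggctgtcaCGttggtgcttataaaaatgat
Intergenic near Sfi1, chr11:3001226-3001525: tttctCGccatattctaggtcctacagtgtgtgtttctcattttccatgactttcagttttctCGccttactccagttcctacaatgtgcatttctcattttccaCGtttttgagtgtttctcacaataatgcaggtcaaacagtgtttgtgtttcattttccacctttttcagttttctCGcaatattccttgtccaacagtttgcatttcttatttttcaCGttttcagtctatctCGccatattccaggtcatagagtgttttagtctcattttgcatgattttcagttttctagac
5033428I22Rik, near Hand2, chr8:59812063-59812362: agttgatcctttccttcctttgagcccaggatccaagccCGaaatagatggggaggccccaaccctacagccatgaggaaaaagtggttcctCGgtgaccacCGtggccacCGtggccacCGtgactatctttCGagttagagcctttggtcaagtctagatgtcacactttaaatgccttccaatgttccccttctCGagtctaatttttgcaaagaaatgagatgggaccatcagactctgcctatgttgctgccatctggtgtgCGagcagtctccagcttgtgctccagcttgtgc
Gata2 intron, chr6:88153610-88153909: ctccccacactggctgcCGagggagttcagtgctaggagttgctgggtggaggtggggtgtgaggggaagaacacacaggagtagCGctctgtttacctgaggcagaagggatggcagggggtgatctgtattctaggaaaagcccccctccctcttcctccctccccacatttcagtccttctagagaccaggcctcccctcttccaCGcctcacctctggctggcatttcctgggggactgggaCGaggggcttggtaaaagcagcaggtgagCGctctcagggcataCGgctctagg
The Trappc9 and Fat1 windows each held 12 CG dinucleotides. The Tal1 window held 5, with a long run of TG repeats. The windows without a Delta counterpart held 3 (Car2), 6 (Sfi1), 8 (5033428I22Rik) and 6 (Gata2). The Sfi1 window, near the start of the assembled part of chromosome 11, is made of repeats of the mouse major satellite, the DNA of pericentromeric heterochromatin, where short reads are hard to place. Over all members, the median number of CG dinucleotides in the central 300 bases was 18 in the 2193 with a Delta counterpart and 9 in the 841 without. In coding-promoter peaks it was 22. In peaks shorter than 300 bp this window takes in bases beside the peak.

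The miRNA genes on which results turn are Mir144 with Mir451, a pair made from one transcript in erythroid cells, and Mir21. Their mature RNAs are shown from RefSeq (GRCm38.p6) with the seed, bases 2 to 8, in capitals. None of the 5 seeds is shared between them.
miR-144-5p: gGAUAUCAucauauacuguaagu
miR-144-3p: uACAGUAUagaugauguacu
miR-451a: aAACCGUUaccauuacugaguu
miR-21a-5p: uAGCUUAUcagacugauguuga
miR-21a-3p: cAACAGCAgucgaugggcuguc

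Off-promoter peaks were shorter and weaker than coding-promoter peaks. Their median length was 610 bp (quartiles 358 and 987 bp), against 1426 bp (940 and 2046 bp). They made up 3034 of 16038 peaks but covered 2.35 Mb, against 20.7 Mb for coding-promoter peaks. Fold enrichment, the authors' ratio of ChIP signal to local background for a peak, had a median of 4.04 in off-promoter and 7.06 in coding-promoter peaks. The 3 classes differed among themselves. Peaks at non-coding TSSs had a median length of 790 bp (456 to 1320 bp) and a median fold enrichment of 4.48. Intergenic peaks had medians of 609 bp (354 to 992 bp) and 4.11, and gene-body peaks of 552 bp (334 to 851 bp) and 3.79. The longest member, 7019 bp, lay at Malat1, a nuclear lncRNA, while the longest coding-promoter peak was 10459 bp. The median distance to the nearest coding TSS was 17704 bp, and 487 members (16.1%) lay within 5000 bp of one. Just outside the limit of the rule, the 150 peaks at 2000 to 2500 bp from a coding TSS had a median length of 704 bp and a fold enrichment of 3.77. The 113 members at 2500 to 3000 bp had medians of 544 bp and 3.83.

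**Figure D1:**
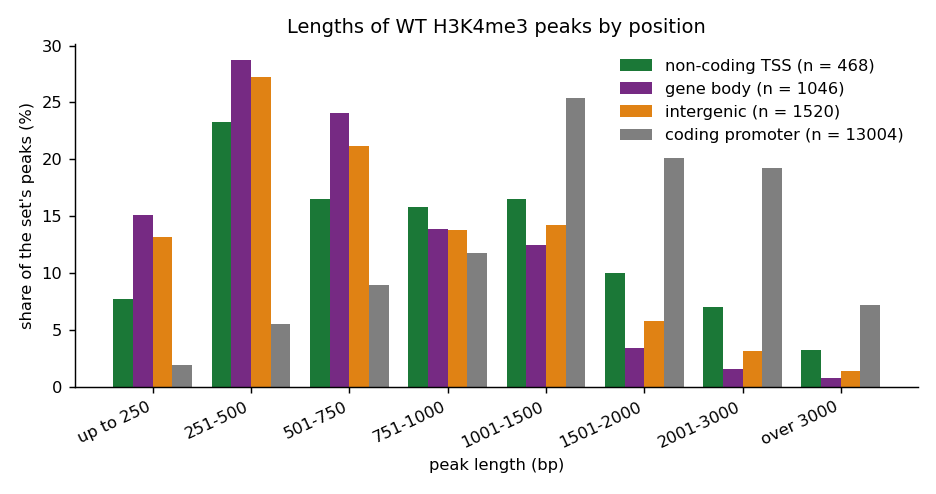
Length of WT H3K4me3 peaks (horizontal axis, bp) as a share of each set (vertical axis, %), for peaks at non-coding TSSs, in gene bodies, between genes and at coding promoters. Gene-body and intergenic peaks are most frequent in the bar from 250 to 500 bp, and coding-promoter peaks in that from 1000 to 1500 bp.

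Over peaks of all strengths, about as many off-promoter as coding-promoter peaks were touched by H3K27me3, far fewer by H3K27ac and more by H2AK119ub. Among peaks of like strength these differences had other sizes or signs. An overlap of at least 1 bp was counted, and intervals are 95% Wilson intervals for shares and Newcombe intervals for differences, which cover the counting of peaks only. H3K27me3 overlapped 1475 members (48.6%, 46.8 to 50.4), beside 50.6% of all WT H3K4me3 peaks and 51.1% of coding-promoter peaks. The difference of -2.45 percentage points (-4.43 to -0.477) turned with the definition of overlap, with length and with strength. When at least 50% of the H3K4me3 peak had to be covered, the shares were 43.0% and 29.5%, a difference of 13.6 points (11.6 to 15.5). With the 1 bp overlap, off-promoter minus coding-promoter, it was -15.5 points (-23.1 to -7.88) among peaks of up to 250 bp and 13.4 points (8.37 to 18.3) at 1000 to 1500 bp. By strength it was -13.3 points (-17.0 to -9.42) at a fold enrichment of 3 to 4 and 10.1 points (4.39 to 15.8) at 6 to 8. H3K27me3 peaks of 10000 bp or more overlapped 442 members (14.6%) and 534 coding-promoter peaks (4.11%), a difference of 10.5 points (9.20 to 11.8).

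H3K27ac overlapped 187 members (6.16%, 5.36 to 7.08), beside 24.7% of all WT H3K4me3 peaks and 29.1% of coding-promoter peaks. The difference was -22.9 points (-24.0 to -21.7). Strength moved with it. At a fold enrichment above 8, H3K27ac overlapped 57 off-promoter peaks (41.9%) and 2737 of 4710 coding-promoter peaks (58.1%). Between 3 and 4 it overlapped 48 of 1355 (3.54%) and 20 of 1245 (1.61%). In the strongest of these groups the difference was -16.2 points (-24.3 to -7.68), while in the weaker it was 1.94 points (0.718 to 3.19) in the other direction. H3K4me3 without any of the other 3 marks was seen in 1403 members (46.2%) and 34.2% of coding-promoter peaks.

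H2AK119ub overlapped 487 members (16.1%, 14.8 to 17.4), beside 11.1% of all WT H3K4me3 peaks and 9.98% of coding-promoter peaks, a difference of 6.07 points (4.70 to 7.51). Among peaks of like strength the sign was the other way in weak ones, with -3.18 points (-6.28 to -0.0862) at a fold enrichment of 3 to 4 and -4.87 points (-8.10 to -1.45) at 4 to 5, and the same way at 6 to 8, with 4.00 points (0.738 to 8.12). By length it was -2.21 points (-7.28 to 2.36) up to 250 bp and 6.04 points (3.59 to 8.64) at 500 to 1000 bp. Of these 487, 21 had no H3K27me3 peak, and 465 carried H3K27me3 and H2AK119ub without H3K27ac (15.3% of members, 8.98% of coding-promoter peaks). H2AK119ub peaks were weak. With a −log10 q of at least 3 in every list, 0.441% of members and 0.252% of coding-promoter peaks carried one, a difference of 0.189 points (-0.0447 to 0.591) that was not told apart from 0. Chromosomes 1 and 8 held 462 members, 24.6% of their H3K4me3 peaks, against 18.2% on the other chromosomes. Among those others, chromosome 13 had a higher share, 28.2%. Members on chromosomes 1 and 8 held a CpG island window (explained below) in 66.9% of cases, against 77.0% elsewhere. They had a Delta counterpart in 67.7%, against 73.1%. With chromosomes 1 and 8 left out, the H2AK119ub share was 14.5%.

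Of the 3 classes, gene-body peaks had the highest shares of both Polycomb marks. H3K27me3 overlapped 571 of 1046 (54.6%), against 238 of 468 (50.9%) at non-coding TSSs and 666 of 1520 (43.8%) between genes. H2AK119ub overlapped 21.7% of gene-body peaks, 15.2% at non-coding TSSs and 12.4% of intergenic peaks. Intergenic minus gene-body, the difference was -10.8 points (-14.7 to -6.84) for H3K27me3 and -9.27 points (-12.3 to -6.30) for H2AK119ub. Between non-coding TSSs and gene bodies the H3K27me3 shares were not told apart, with a difference of -3.73 points (-9.15 to 1.69). H3K27ac had another order, with 12.8% at non-coding TSSs, 6.05% between genes and 3.35% in gene bodies. Peaks at non-coding TSSs exceeded intergenic ones by 6.77 points (3.74 to 10.3).

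**Figure D2:**
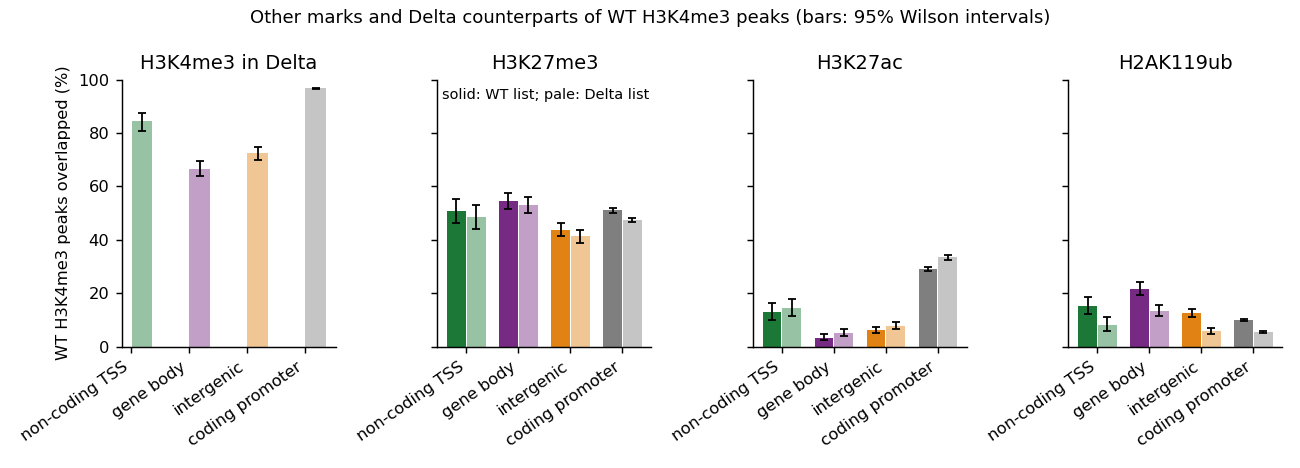
Share of WT H3K4me3 peaks (vertical axis, %) overlapped by Delta H3K4me3 or by H3K27me3, H3K27ac and H2AK119ub in WT (solid) and Delta (pale), by position of the peak, with 95% Wilson intervals. Counterparts in Delta were found for 84.4% of peaks at non-coding TSSs, 66.7% in gene bodies, 72.4% between genes and 96.8% at coding promoters.

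A Delta H3K4me3 peak overlapped 2193 of 3034 members (72.3%, 70.7 to 73.8) and 12582 of 13004 coding-promoter peaks (96.8%). Over all WT H3K4me3 peaks, 7.88% had no Delta counterpart, against 841 of 3034 off-promoter peaks. The difference in share was -24.5 points (-26.1 to -22.9). It was smallest at non-coding TSSs, with a counterpart for 395 of 468 (84.4%), and largest in gene bodies, with 698 of 1046 (66.7%). Intergenic peaks had a counterpart in 1100 of 1520 cases (72.4%). The counterparts were themselves off-promoter in nearly every case, and 20 members were met by a Delta peak that reached a coding promoter.

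Members without a Delta counterpart were short and weak in WT. Their median length was 341 bp and their median fold enrichment 3.41, against 754 bp and 4.46 in those with one. The median −log10 q was 2.44 and 5.60, and 254 of 841 (30.2%) reached 3, against 1788 of 2193 (81.5%). Set beside coding-promoter peaks of like strength, the gap in counterparts was widest at a fold enrichment of 3 to 4 and narrowed above it. Up to 3, 41.9% of 124 off-promoter and 57.1% of 77 coding-promoter peaks had a counterpart, a difference of -15.2 points (-28.6 to -1.02). At 3 to 4 the shares were 52.8% and 74.5%, a difference of -21.7 points (-25.2 to -18.1). They were 84.7% and 96.1% at 4 to 5, and 96.1% and 99.5% at 5 to 6. Above 8, every off-promoter peak and all 4710 coding-promoter peaks had one. Among peaks of 500 to 1000 bp the shares were 80.5% and 95.7%, and at 1000 to 1500 bp they were 95.5% and 99.3%.

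CpG content went with counterparts up to a fold enrichment of 6, also among members of like length. A CpG island window, a stretch of 200 bp with a GC content of at least 50% and an observed over expected CpG ratio of at least 0.6, was held by 2290 members (75.5%). The share was 92.3% in all WT H3K4me3 peaks and 96.3% in coding-promoter peaks. Peaks under 200 bp were taken whole. Among peaks of like length the gap to coding-promoter peaks was smaller. The shares were 66.1% and 79.8% at 250 to 500 bp, 84.5% and 94.6% at 500 to 1000 bp, and 93.6% and 98.8% at 1000 to 1500 bp. Of the members with such a window, 84.1% had a Delta counterpart, and of the 744 without one, 36.0%. Peaks without a window were also shorter (324 against 715 bp) and weaker (3.45 against 4.33). Within a fold enrichment of 3 to 4 the shares were 68.5% (574 of 838) and 27.3% (141 of 517), a difference of 41.2 points (36.1 to 46.0). At 4 to 5 they were 89.0% and 62.2%, and at 5 to 6 they were 98.2% and 75.8%. Above 6, 12 of 12 members without a window had a counterpart, as did 439 of 441 with one. Within 3 to 4, members with a window were still longer, with a median of 544 bp against 294 bp. Held to a fold enrichment of 3 to 4 and a length of 250 to 500 bp, 58.4% of 291 with a window and 31.5% of 197 without had a counterpart, a difference of 26.9 points (18.1 to 35.2). At 500 to 1000 bp it was 42.4 points (32.0 to 51.6). H3K27me3 followed CpG content too, with 59.1% of members with a window and 16.4% of those without, and H2AK119ub overlapped 19.7% and 4.70%. H3K27ac was at 6.9% and 3.9%, but its order differed between the classes. It was at 14.4% and 4.11% at non-coding TSSs, at 7.14% and 2.86% between genes, and at 2.63% and 5.24% in gene bodies, a difference there of -2.61 points (-5.97 to -0.139).

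**Figure D3:**
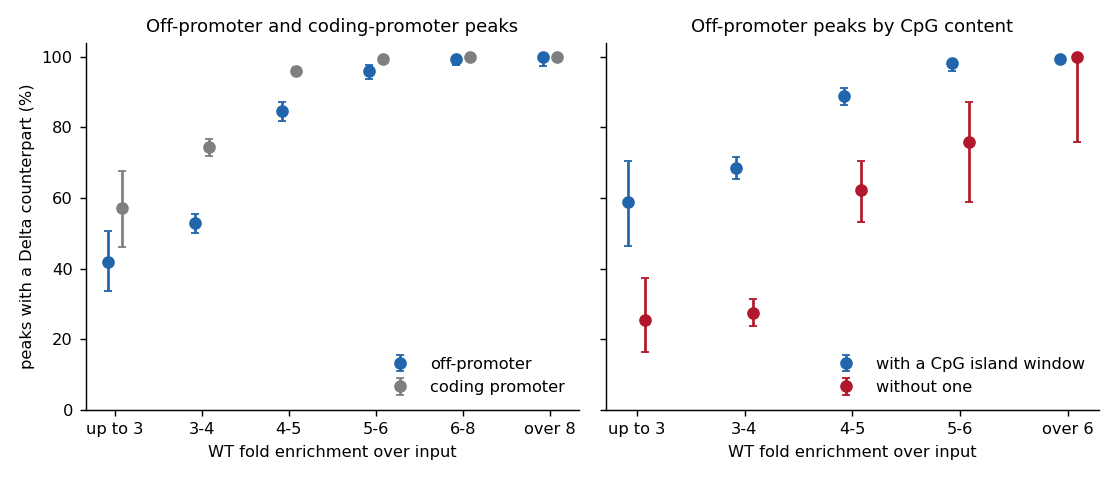
Share of WT H3K4me3 peaks with a Delta H3K4me3 counterpart (vertical axis, %) by WT fold enrichment over input (horizontal axis), with 95% Wilson intervals. Left, off-promoter against coding-promoter peaks, which meet at 100% above a fold enrichment of 8; right, off-promoter peaks with and without a CpG island window, at 68.5% and 27.3% for a fold enrichment of 3 to 4.

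Where a member and a Delta peak matched one to one (2157 pairs), the Delta peak was slightly shorter, with a median length ratio, Delta over WT, of 0.949 (quartiles 0.760 and 1.16) and a fold enrichment ratio of 0.967 (0.847 and 1.1). In coding-promoter pairs the medians were 0.932 and 0.905. The off-promoter pairs were more spread. Among all H3K4me3 pairs 4.72% were at least 1.5-fold longer in Delta and 11.1% at least 1.5-fold shorter, against 255 (11.8%) and 374 (17.3%) of off-promoter pairs.

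The bivalent members mostly kept H3K27me3. Of the 1475 with H3K27me3 in WT, 1090 (73.9%) had both marks in Delta, 241 kept H3K27me3 alone, 113 kept H3K4me3 alone and 31 had neither. H3K27me3 was present in Delta at 90.2% (88.6 to 91.6) of them, against 79.0% (78.0 to 79.9) of the 6641 bivalent coding-promoter peaks. At the latter the order was the other way round, with H3K4me3 alone at 1387 and H3K27me3 alone at 185. H3K27ac was kept at 126 of 187 members (67.4%, 60.4 to 73.7) and at 82.5% (81.2 to 83.6) of coding-promoter peaks with the mark. In gene bodies it was kept at 19 of 35. H2AK119ub was kept at 193 of 487 (39.6%) and at 39.8% of coding-promoter peaks, in lists of 4922 and 2388 peaks. Gains were less frequent off promoters, with Delta H3K27me3 at 5% of members without it in WT (14.6% of coding-promoter peaks) and Delta H3K27ac at 3.83% (13.3%). Coding-promoter peaks are longer and stronger, and marks kept or gained were not compared at like length or strength. Bivalent here means an overlap of at least 1 bp. A mark counts as kept where any Delta peak of it overlapped the WT H3K4me3 peak, even beside the WT peak of that mark. H3K27me3 covered at least 50% of the peak at 1306 of the 1475 bivalent members but 3834 of the 6641 bivalent coding-promoter peaks. H3K27me3 peaks of 10000 bp or more overlapped 14.6% of all members and 4.11% of all coding-promoter peaks. H3K27me3 kept in Delta was not compared at like coverage or like length of the H3K27me3 peak.

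The 468 peaks at non-coding TSSs belonged to 442 genes. By gene type, 196 peaks lay at lincRNAs, 124 at processed transcripts, 60 at pseudogenes, 51 at miRNAs, 17 at snRNAs and 12 at snoRNAs. Long non-coding genes (320 peaks) had a median length of 798 bp, a Delta counterpart at 83.8% and H3K27ac at 12.5%. Small RNA genes (87 peaks) had a median of 862 bp, a counterpart at 87.4% and H3K27ac at 19.5% (12.6 to 29.1). Pseudogenes (61 peaks) had a median of 587 bp, with H3K27me3 at 67.2% (54.7 to 77.7) against 48.1% at long non-coding genes.

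Part of the off-promoter set lay at coding promoters of a later annotation. The starts of RefSeq genes, placed by an exact match of 100 bases around the start, lay within 2500 bp of 652 members (21.5%), and 249 (8.21%) were next to a RefSeq protein-coding start. Of these 249, 53 were at non-coding TSSs, 44 in gene bodies and 152 between genes. For these the name "off-promoter" holds for GENCODE M1 alone. By gene symbol, 226 of the 442 non-coding genes were found in RefSeq, and 31 of these, with 33 peaks, are listed there as protein-coding. They included Gfi1, a repressor of blood and endothelial programmes, Cebpd, Kctd12, Frat1, Foxl1 and Oaz2. The Gfi1 peak at its TSS was 3925 bp long in WT and 1570 bp in Delta, at fold enrichments of 3.46 and 3.83, within H3K27me3 of 15719 and 16205 bp. Members near a RefSeq start had a Delta counterpart at 85.1%, the others at 68.8%, a difference of 16.4 points (12.9 to 19.5). Members near a start were also stronger and longer, with a median of 849 bp against 552 bp. Among members of like strength the difference was smaller. It was 10.6 points (2.90 to 17.9) at a fold enrichment of 3 to 4 and 5.45 points (1.33 to 8.93) at 5 to 6. At 4 to 5 it was 2.10 points (-4.92 to 7.70), and above 6 the shares were 99.5% and 99.6%. Up to 3, with 13 members near a start, the interval also included 0.

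Of the 20 annotated lncRNAs in a list of well-known ones, 10 had members, 12 peaks in all, and 2 of these had no Delta counterpart. The Malat1 peak (chr19:5797097-5804115) was 7019 bp long with a fold enrichment of 9.79 in WT, and 5962 bp with 8.58 in Delta. It overlapped H3K27ac of 2679 and 2139 bp and H3K27me3 of 1517 and 362 bp. The peak at Mir17hg, host of the growth-promoting miR-17-92 miRNAs, was 3562 bp long in WT and shorter in Delta (2873 bp), with H3K27ac in both. H3K27me3 of 541 bp overlapped it in Delta alone. The longer of 2 peaks at Dleu2, host of miR-15a and miR-16, was 4279 and 3912 bp and lay in H3K27me3 of 10326 and 10454 bp. The other, at an inner start, was 2460 and 2267 bp and carried H3K27ac and H3K27me3 in both. Neat1, which builds paraspeckles, had a weak peak of 756 bp in WT and a longer one, of 1782 bp, in Delta, beside H3K27ac of 5202 and 5364 bp. Pvt1, next to Myc, had 1795 and 918 bp. Snhg12, a snoRNA host gene, had 2163 and 1763 bp. Other snoRNA hosts led the class by fold enrichment. The peak at 1110038B12Rik had 12.6 in WT and 10.1 in Delta, Snhg8 had 11.9 and 8.79, and Snhg15 had 11.8 and 9.54, each with H3K27ac in both genotypes. H3K27me3 also overlapped each of them in WT, with 811, 1574 and 723 bp. In Delta it overlapped 1110038B12Rik (746 bp) and Snhg15 (678 bp) but not Snhg8.

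Imprinted lncRNAs, which are expressed from one parental allele, differed in whether they had a Delta counterpart. Airn, the antisense RNA within Igf2r, had a peak of 2200 bp (fold enrichment 7.94) in WT and 2318 bp (6.21) in Delta, with H3K27me3 in both. H19 had 1539 bp (4.27) in WT and 1349 bp (4.06) in Delta, beside a second peak of 174 bp in WT alone. The Meg3 peak, chr12:110779547-110780192, was 646 bp long with a fold enrichment of 3.31 in WT and had no Delta counterpart. It held a CpG island window, and 574 of 838 members with a window at a fold enrichment of 3 to 4 had a counterpart. The RefSeq start of Kcnq1ot1 lay at a member in an intron of Kcnq1, chr7:150479640-150482408. That peak had 2769 bp and a fold enrichment of 12.3 in WT, and 1943 bp and 6.22 in Delta. It overlapped H3K27ac of 715 bp and H3K27me3 of 1123 bp in WT and neither mark in Delta.

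Of 37 annotated miRNA genes in a list of developmental and blood miRNAs, 8 had a member, and 3 of these had no Delta counterpart. The peak over Mir144 and Mir451, chr11:77885978-77887493, was 1516 bp long with a fold enrichment of 5.84 and a −log10 q of 8.68 in WT. Delta had no H3K4me3 peak there, and no other mark was called at it in either genotype. It held no CpG island window, with an observed over expected CpG ratio of 0.189. Among members with a fold enrichment of 5 to 6, 349 of 363 had a counterpart, and among those of them without a CpG island window 25 of 33. A coding-promoter peak that began 6.21 kb from the Mir144 hairpin was present in both, 1769 bp long in WT and 1278 bp long in Delta. The Mir21 peak, in an intron of Vmp1 and 2488 bp from the hairpin, was 1446 bp long with a fold enrichment of 3.85 in WT. It was absent from the Delta list and held no CpG island window. Mir9-2, a neural miRNA gene, had a WT peak of 1028 bp (3.35) with such a window and none in Delta, inside H3K27me3 of 4548 and 8536 bp. Among all members with a fold enrichment of 3 to 4, 141 of 517 without a window and 574 of 838 with one had a counterpart. The other 5 miRNA genes had counterparts. At the Mir290 cluster of pluripotent cells the WT peak was 2511 bp long (8.34) and the Delta peak 2618 bp (7.47). The peaks of Mir124a-3, Mir137, Mir219-2 and Mir375, of the neural and endocrine lineages, all lay in H3K27me3 peaks in both genotypes.

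In gene bodies, 508 of 1046 peaks (48.6%) overlapped an exon of a protein-coding gene, untranslated exons included, and 961 lay in a protein-coding gene. Another H3K4me3 peak lay within 3000 bp of 215 of them (20.6%), beside 17.1% at non-coding TSSs, 13.8% between genes and 10.8% of all WT H3K4me3 peaks. For 123 (11.8%) that neighbour was a coding-promoter peak, as for 2.78% at non-coding TSSs and 4.34% between genes. The strongest was in Baz2a, with a fold enrichment of 14.5 in WT and 12 in Delta. Another, at the RefSeq start of Exosc6 in the UTR of Aars, had 13.8 and 9.83. An intronic peak of Hnrnpf was the longest (4316 and 3079 bp), and one in Trappc9 had 3849 and 1407 bp. The strongest intergenic peak lay 9200 bp upstream of Zfhx3, with a fold enrichment of 15.6 in WT and 9.52 in Delta, and the longest lay upstream of Fat1, with 4405 and 4493 bp. Among the longest without a counterpart were an intronic peak of Car2, a carbonic anhydrase gene (1618 bp, fold enrichment 3.76), which carried no other mark, and peaks in H3K27me3 domains at Slc32a1 (1645 bp) and Barx1 (1329 bp).

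Many genes for developmental regulators had members. Of 22359 coding genes, 2453 (11.0%) had a member in the body or as the nearest coding TSS, 1895 of them a single one and 25 of them 5 or more. Of 14 cardiac transcription factor genes, 12 had members, 35 peaks in all. H3K27me3 overlapped 32 of these 35, H2AK119ub 16 and H3K27ac none, beside shares of 48.6%, 16.1% and 6.16% in all members. A member counts for a gene if it lies in its body or has its TSS as the nearest coding one, at any distance. Of the 35, 7 lay more than 50 kb from a coding TSS, namely all 6 of Mef2c and 1 of Gata6. Without them, a limit chosen after values were seen, 11 genes had 28 members, 26 with H3K27me3 and 14 with H2AK119ub. Neural factors had members at 8 of 13 genes (19 peaks, 18 with H3K27me3) and paraxial mesoderm factors at 6 of 14 (14 peaks, 13 with H3K27me3). No WT H3K27ac peak overlapped a member in these 3 lists. Primitive streak and posterior genes had members at 7 of 14 genes (9 peaks) and pluripotency genes at 4 of 10 (8 peaks). Endothelial and haemangioblast genes had them at 5 of 14 (5 peaks), and blood and endothelial transcription factors at 5 of 18 (7 peaks). The genes encoding SCL corepressors and PRC1 subunits had members at 5 of 14 (8 peaks).

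Hand2, a cardiac regulator, had 6 members along 41.8 kb, in 1 H3K27me3 peak, which spanned 47263 bp in WT and 47317 bp in Delta. Their WT lengths were 944, 1392, 1892, 559, 195 and 244 bp. The third, at 5033428I22Rik, and the fifth had no Delta counterpart, and the others had Delta peaks of 964, 776, 808 and 589 bp. Isl1, Gata4 and Tbx2, further cardiac factors, had 3 members each. The 6 members counted for Mef2c lay 196671 to 220621 bp from its TSS, in or next to the lincRNA gene C130071C03Rik, and one of them is the Mir9-2 peak described above. At Isl1 the member farthest downstream had neither H3K4me3 nor H3K27me3 in Delta and the other 2 had both. Pax2, a kidney and brain regulator, had 10 members, each with a Delta counterpart and 9 with H3K27me3. The highest count was that of Gm20388, a gene model on chromosome 8 whose 19 members span 3658 kb and which runs over the bodies of Gse1, Zfpm1 and other genes. The 12 members at Pcdhgc5 lie in the clustered protocadherins, whose genes share exons. Zfp184 had 10 members and Gpx5 had 6, both in or next to the histone cluster of chromosome 13. BC107364 and C130026I21Rik had 6 each, with 4 counterparts each, and Zfhx3 had 7, with 3.

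**Figure D4:**
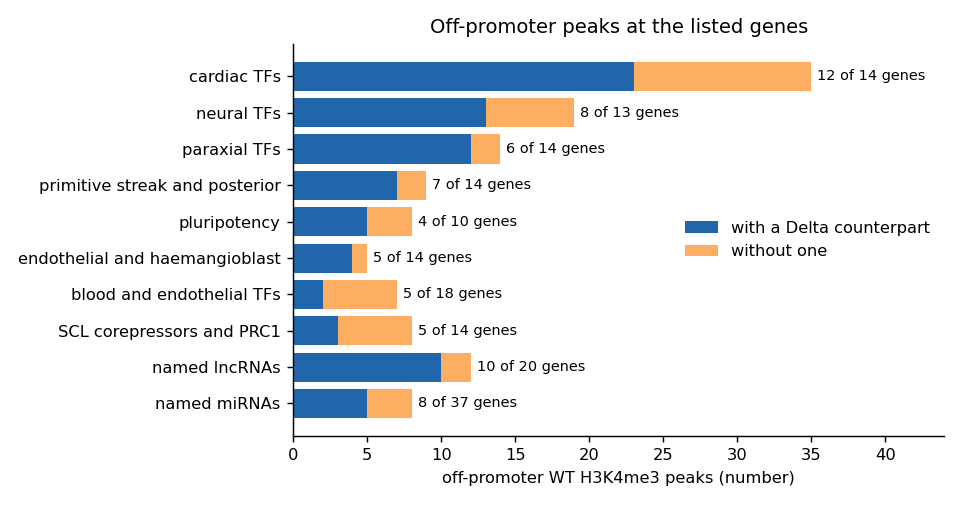
Off-promoter WT H3K4me3 peaks at genes of each list (horizontal axis, number of peaks), split into those with and without a Delta counterpart; the text at each bar gives the genes with a member out of those annotated. Cardiac factors hold 35 peaks, 12 of them without a counterpart, and blood and endothelial factors 7, with 5 without.

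Among the lists, the lowest shares of members with a counterpart were at mesoderm marker, blood factor and corepressor genes, on small numbers. Of the 7 members at blood and endothelial transcription factors, 5 had no Delta counterpart, against 841 of all 3034. Of the 8 at corepressor and PRC1 genes, 5 had none, as did all 5 counted for the mesoderm markers T, Pdgfra and Gata2, a list that shares 2 Gata2 peaks with the blood factors. The T member lay 44881 bp from the T TSS, at the start of the lincRNA gene Gm16702. The number was 12 of 35 for the cardiac list, 6 of 19 for the neural, 2 of 14 for the paraxial, 2 of 9 for the streak, 3 of 8 for the pluripotency and 1 of 5 for the endothelial list. The 2 members counted for markers of other cell types, Sox17 (74947 bp away) and Pax6, had counterparts. The 2 members at Gfi1, a non-coding gene in GENCODE M1, are outside the counts of these lists, and both had a Delta counterpart. Within 50 kb of a coding TSS, 5 of 6 members at blood factors, 4 of 6 at corepressor and PRC1 genes and 10 of 28 at cardiac genes had none. The 5 members without a counterpart at blood factors had fold enrichments of 2.99 to 3.74 in WT. Among all members with a fold enrichment of 3 to 4, 715 of 1355 had a counterpart. Of these 5, 4 held no CpG island window, and without a window 141 of 517 members at 3 to 4 had a counterpart. At corepressor and PRC1 genes 4 of the 5 without a counterpart likewise held no window.

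At Tal1 (SCL) the member lay in an intron, chr4:114735255-114738777, 3142 bp downstream of a TSS. It was 3523 bp long with a fold enrichment of 7.97 in WT, and 2283 bp with 4.36 in Delta. H3K27me3 overlapped it in both, with peaks of 1378 bp in WT and 1218 bp in Delta. These lay 3.79 to 5.16 kb and 2.26 to 3.48 kb from that TSS, so they did not overlap each other. H3K27ac (336 bp, fold enrichment 3.92) and H2AK119ub (852 bp, 3.64) overlapped the member in WT alone. This made it the single member with all 3 other marks, against 49 coding-promoter peaks. The H3K27ac peaks of WT upstream in the same locus, of 1453 and 1833 bp, were likewise not called in Delta. The H3K4me3 peak at the TSS had 6092 bp (7.87) in WT and 4175 bp (4.72) in Delta. This is the gene altered in Delta, so values of its locus are not those of an independent target.

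At Gata2, a regulator of blood stem and progenitor cells, 2 members were seen in WT and neither had a Delta counterpart. The intronic one, chr6:88153595-88153925, was 331 bp long (3.74) and overlapped H3K27ac of 301 bp (4.05) in WT. In Delta no H3K27ac was called at it and an H3K27me3 peak of 3655 bp (4.04) lay there. The upstream one, 162 bp long (3.59), lay in H3K27me3 of 1561 bp in WT and of 15273 bp in Delta. The main H3K4me3 peak in the gene was present in both, at 6804 bp (7.18) in WT and 6325 bp (5.19) in Delta. Lyl1, the closest relative of SCL, was the nearest gene of 2 members that lay in the neighbouring gene Nfix. They were 622 and 940 bp long in WT and absent from Delta, where the H3K27me3 peak was 18494 bp in place of 10064 bp. A member of 753 bp upstream of Sox7, an endothelial factor, had no H3K4me3 but H3K27me3 of 9207 bp in Delta, while WT had no H3K27me3 there. A member of 287 bp upstream of Egfl7, an endothelial gene and host of Mir126, overlapped H3K27ac of 2883 bp (4.27) in WT. Neither mark was called there in Delta.

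Among the corepressor genes, the 2 intronic members of Zfpm1 (733 and 219 bp, fold enrichments 2.98 and 2.69) and 1 of 3 at Gse1 (915 bp, 3.96) had no Delta counterpart and no other mark apart from H2AK119ub at Gse1 in WT. The members counted for Rybp and Runx1t1 had no Delta counterpart either, and lay far from both genes. The one for Rybp, 201 bp long and 48342 bp away, overlapped a Delta H3K27ac peak of 171 bp (5.66). The one for Runx1t1, 479 bp long and 177003 bp away, overlapped H3K27me3 in WT (1905 bp) and in Delta (1867 bp). The member 29424 bp upstream of the annotated Pcgf5 start, at a RefSeq start of that gene, was strong in both, 1789 bp long (9.38) in WT, 1858 bp (9.09) in Delta, and carried H3K27me3 and H3K27ac in both.

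**Figure D5:**
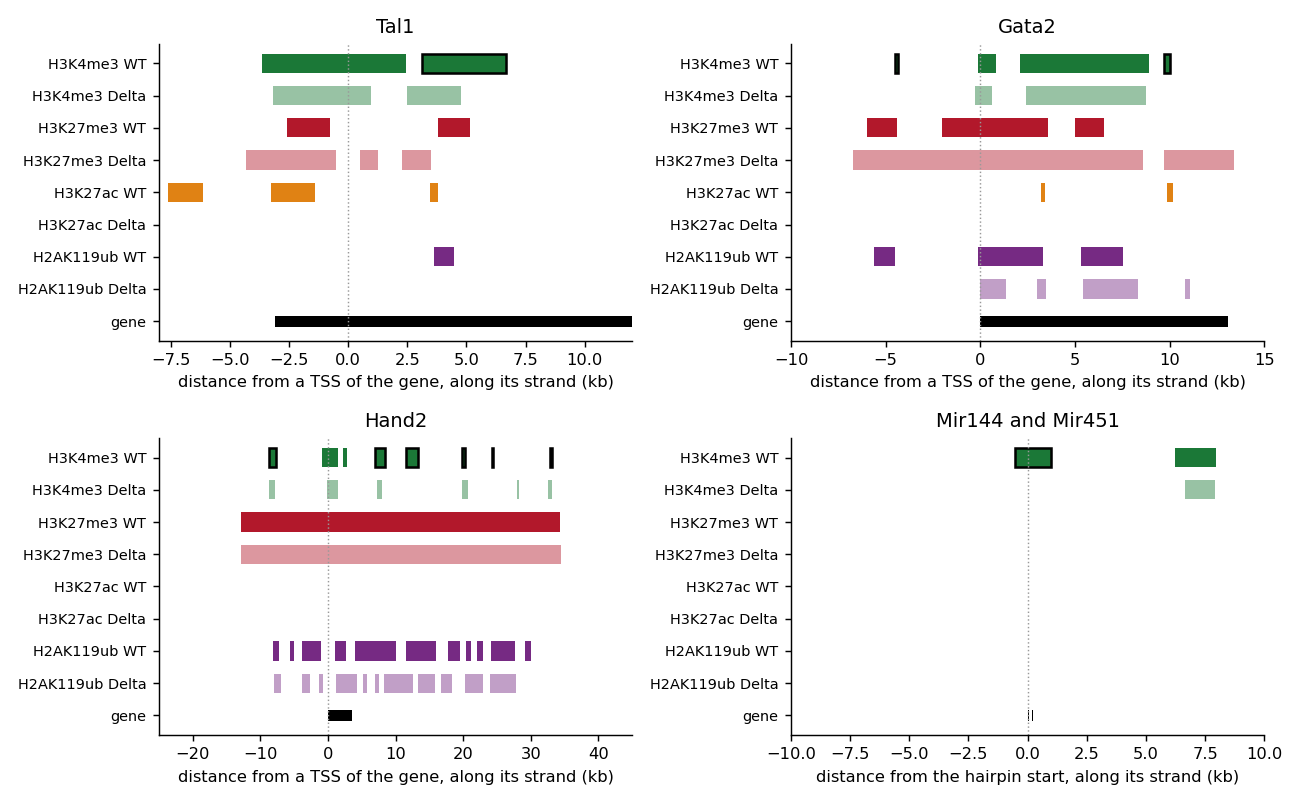
Peaks of the 4 marks in WT (full colour) and Delta (pale) at Tal1, Gata2, Hand2 and the Mir144 and Mir451 hairpins, by distance along the gene's strand from one of its TSSs or from the hairpin start (horizontal axis, kb). Outlined H3K4me3 bars are off-promoter peaks. The Mir144 peak and both Gata2 members have no pale bar beneath them, and the 6 Hand2 members lie in a single H3K27me3 peak of 47263 bp in WT.

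A set of strong members held letters of RNA polymerase III promoters. The B box of transfer RNA (tRNA) genes was searched as GGTTCGANNCC on both strands over whole peaks, a search chosen after values were seen. Nuclear tRNA genes were not among the annotated genes used. The letters were in 68 members (2.24%) and 1.45% of coding-promoter peaks, which are longer, with 3.85% at non-coding TSSs, 0.574% in gene bodies and 2.89% between genes. The 68 had lengths of 568 to 5308 bp (median 1598 bp) and a median fold enrichment of 6.14. A Delta counterpart was found for 67, H3K27ac for 2 and H3K27me3 for 22, beside 72.3%, 6.16% and 48.6% of all members. Of members without the letters, 84.4% had a counterpart at a fold enrichment of 4 to 5. The share was 96.0% at 5 to 6 and 99.5% above 6. On chromosome 13, 27 of the 68 lay between 21 and 24 Mb, where 53 histone genes of the Hist1 cluster are annotated. That stretch held 107 WT H3K4me3 peaks, of which 61 were off-promoter. Of these 61, 54 had a Delta counterpart and none overlapped H3K27ac, beside 72.3% and 6.16% of all members. By chromosome, the off-promoter share of H3K4me3 peaks was highest on chromosome 13 (28.2%) and lowest on X (13.9%).

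Letters bound by blood factors were searched on both strands of the central 300 bases, which reach past the edges of shorter peaks. The GATA letters AGATAA were in 7.55% of members and 5.03% of coding-promoter peaks, a difference of 2.52 points (1.55 to 3.58). The E-box letters CAGCTG were in 20% and 15.9%, and CAGATG in 14.8% and 11.5%. The ETS letters CCGGAAG, in which CG lies, were in 6.03% and 8.44%. The E-box and GATA composite CTGNNNNNNNNAGATAA, which contains the GATA letters, was in 6 members (0.198%) and 0.192% of coding-promoter peaks. A match is a description of sequence and not a bound site.

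Seen from Delta, the same rule gave 2578 off-promoter peaks, a ratio of 0.850 (0.806 to 0.895) to WT, with 0.927 at non-coding TSSs, 0.827 in gene bodies and 0.841 between genes. Coding-promoter peaks had a ratio of 0.987. Of the Delta off-promoter peaks 85.9% overlapped a WT H3K4me3 peak, leaving 364 without one, against 841 in the other direction. When equal numbers of the strongest H3K4me3 peaks were taken from both lists, the ratio was 0.982 (0.931 to 1.04) and 79.2% of WT members had a counterpart. Per the study's methods the Delta H3K4me3 library, which gave fewer off-promoter peaks, had the larger number of mapped reads. The part of read depth in the difference was not tested. Among Delta off-promoter peaks without a WT counterpart, the longest at non-coding TSSs lay at Mir302b, of a pluripotency miRNA cluster (903 bp, fold enrichment 3.54). Mir149 followed with 858 bp. The longest in gene bodies was in Ahdc1 (1163 bp). Between genes the longest lay far from any coding TSS, nearest to that of Tcfec (1483 bp, 4.45).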

How the data were processed

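ChIP-Rx peaks of 8 libraries (4 marks, 2 genotypes, 1 library each) were used. The 2 input libraries were not analysed here. Per the methods and the submitters' processing notes, reads were trimmed with Trim Galore and mapped uniquely with Bowtie to mm9 and dm3, duplicates were removed with SAMtools, and broad peaks were called per library with MACS2 2.0.10 against the input of the same genotype; bedtools was also listed. Spike-in scaling was applied to signal densities only, and a global change in a mark therefore cannot be read from peaks. For each peak the authors gave a fold enrichment, a ratio to the local background, and the p-value and q-value on a −log10 scale. The authors' score column restates the q-value and was left out. Only regions past the caller's cutoff are listed, so a missing peak is one that was not called.

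Positions are 1-based on mm9. Of 37310 GENCODE M1 genes, 22359 protein-coding genes gave the coding TSSs. A counterpart or overlap needed 1 bp. Shares have 95% Wilson intervals and differences Newcombe intervals. Neighbouring peaks are not independent, so these are too narrow. CpG windows, motifs and printed windows came from the reference genome. RefSeq starts came from 32851 promoter sequences (250 bases before to 50 after the start, GRCm38.p6), looked for by 100 exact bases around the start within 2500 bp of each peak on the same chromosome. The window with the highest observed over expected CpG ratio, which the naming rule also selects, was not printed.

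The members, lists and tests were chosen with earlier results of these data known. Peaks named were, per class, the 3 longest, the 3 of highest fold enrichment and the 3 longest without a Delta counterpart, given in full or in part, with genes of the lists and the 10 coding genes with most members. Alternatives were TSS distances of 1000 and 5000 bp, TSSs of all transcripts, a −log10 q of at least 3, 50% coverage, joining of peaks up to 3000 bp apart, equal numbers of top peaks, leaving out chromosomes 1 and 8, pseudogenes as no gene, and stricter CpG limits. Overlap and distance code was tested on 3000 simulated peaks with known answers, all recovered. Python 3.11.15, numpy 2.4.6, pandas 2.3.3, scipy 1.17.1, matplotlib 3.10.9 and bedtools 2.31.1 were used.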

Additional observations from a re-analysis of the deposited data

How the results depend on the processing

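No paired analysis was possible because each mark and genotype had 1 library, and no replicate could be left out. The number of off-promoter peaks ran from 2042 to 3425 over the settings, within 1.5 times the reported 3034. With TSS distances of 1000 bp the share at non-coding TSSs was 12.1%, that with H3K27me3 50.6% and that with H2AK119ub 17.7%, and with 5000 bp the non-coding share was 20.6% and the H2AK119ub share 13.9%. With a −log10 q of at least 3 in every list, 18.1% lay at non-coding TSSs, 5.09% carried H3K27ac, 0.441% H2AK119ub and 85.9% a CpG island window, and the median length was 755 bp. H3K27me3 was then at 44.8% of members and 35.3% of coding-promoter peaks, so the difference turned in sign to 9.50 points, as it did with 50% coverage (43.0% and 29.5%). With 50% coverage a Delta counterpart was found for 63.7%, H3K27ac for 2.18% and H2AK119ub for 9.06%. Joining peaks gave a median length of 635 bp. Equal numbers of top peaks gave a counterpart share of 79.2%, an H3K27me3 share of 50.8%, a median length of 658 bp, a CpG island share of 80.5% and a Delta to WT ratio of 0.982. Without chromosomes 1 and 8 the H2AK119ub share was 14.5% and the CpG island share 77.0%. Pseudogenes counted as no gene gave a non-coding share of 13.6%, and stricter CpG limits a CpG island share of 66.2%. Using TSSs of all transcripts moved none of these values beyond their intervals. Apart from the construction of each setting, the cause of these differences was not tested. For members at genes of a list, a limit of 50 kb to a coding TSS, chosen after seeing the data, left 28 of 35 cardiac and 6 of 8 corepressor members. The absence of replicates, and of read counts per peak, limits every comparison of WT with Delta, most of all for peaks with a fold enrichment under 4.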
